A study of Equus caballus with 6 samples.

Results

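Small leucine-rich proteoglycans (SLRPs) were followed through 10 bovine probe sets, a probe set being the group of short array probes that together read a transcript. All probe sets annotated with DCN, BGN, ASPN, LUM, FMOD, PRELP, KERA or OGN as their only gene symbol were taken, so that 8 of the 9155 named genes on the array are described. BGN and PRELP have a pair of probe sets each, and these were kept apart. The samples were lamellar hoof tissue of the horse with laminitis, taken from the right foot (replicates 1, 3 and 4), and normal lamellar tissue of the right foot (replicates 2, 3 and 4). The lamellae are interleaved sheets of epidermis and dermis that hang the coffin bone inside the hoof wall, and in laminitis this suspension fails. The cause and stage of the laminitis, the age and breed of the horses, and whether each sample came from a different horse are not given in the sources used here, so each p-value speaks of the scatter among these 6 samples, part of which may be technical.

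SLRPs are secreted proteins with a core of leucine-rich repeats, most of which carry chondroitin, dermatan or keratan sulfate chains. In connective tissue they sit on collagen fibrils, where they limit lateral fusion and set fibril diameter and spacing, and several of them also bind growth factors and cell surface receptors. DCN, BGN and ASPN form class I of the family, LUM, FMOD, PRELP and KERA class II, and OGN belongs to class III. Skin dermis is known for abundant decorin, the product of DCN. In the RefSeq gene table of the horse assembly TB-T2T all 8 genes were found by symbol. KERA, LUM and DCN are direct neighbours there, as are FMOD and PRELP, while OMD, another SLRP gene, lies between ASPN and OGN.

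Of the 10 probe sets, 7 passed the filter on low values, which asks for a signal above the array's own median on at least 3 of 6 arrays. They stand for 6 genes. The dimmer PRELP probe set and the probe sets of KERA and OGN did not pass and are given by their values alone. In limma, fitted to log2 signals of all 12519 probe sets that passed, 0 of the 7 SLRP probe sets were called higher and 0 lower at a Benjamini-Hochberg adjusted p of 0.05, as were 0% of all tested probe sets in either direction. At an unadjusted p under 0.05, 1 SLRP probe set, that of DCN, was lower and 0 were higher, where 4.97% of all tested probe sets were lower and 4.82% higher. The median log2 difference (laminitis minus normal) over the 6 genes was -0.027, against -0.029 over all 6151 tested genes, with 3 genes negative and 3 positive. The groups did not overlap for 1 of 6 SLRP genes, namely DCN, lower in laminitis, against 17.1% of all tested genes (8.36% lower and 8.7% higher), so the count is close to the background.

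**Figure D1:**
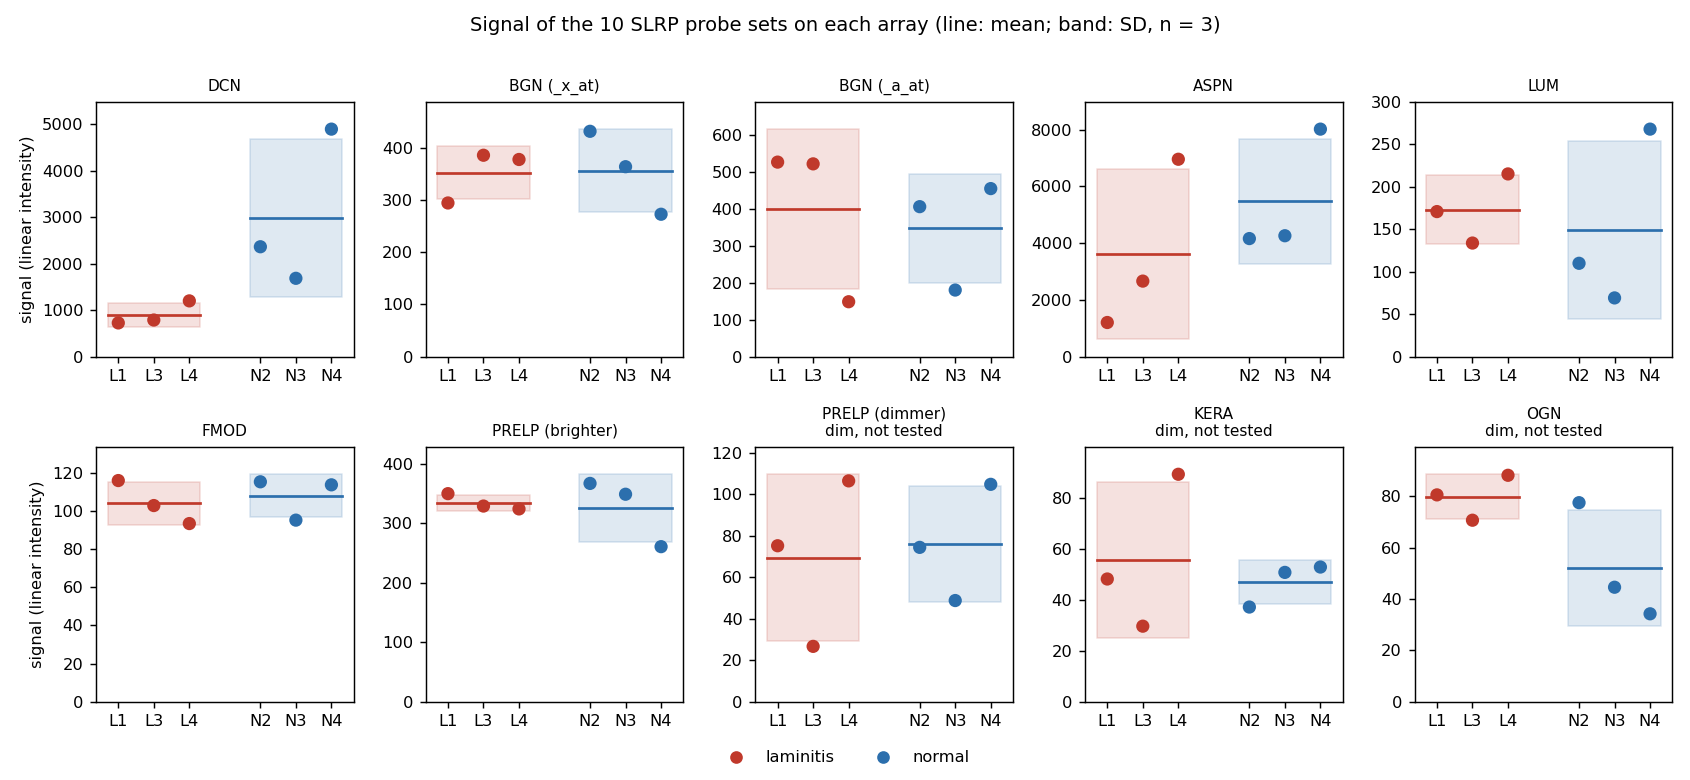
Linear signal of the 10 SLRP probe sets on each array, with laminitis arrays (L1, L3, L4, red) left of normal arrays (N2, N3, N4, blue). The line is the group mean and the band 1 SD (n = 3). DCN is the member whose laminitis arrays, at 724 to 1199, all lie below the normal arrays, at 1685 to 4898.

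DCN encodes decorin, which binds type I collagen fibrils, sequesters TGF-beta and antagonises the receptor kinases EGFR and MET. Its signal was 724, 787 and 1199 on laminitis replicates 1, 3 and 4, against 2365, 1685 and 4898 on normal replicates 2, 3 and 4. Every laminitis array lay below every normal array, and the arrays ran from laminitis 1, the lowest, through laminitis 3, laminitis 4, normal 3 and normal 2 to normal 4. The group means were 903 ± 258 in laminitis and 2982 ± 1693 in normal tissue (SD, n = 3 each), a geometric mean 3.06-fold lower in laminitis. The log2 difference was -1.61 ± 0.42 (SE), with a 95% interval from -2.60 to -0.62. The limma adjusted p of 0.345 did not pass, and the exact two-sided permutation test gave 0.1, the smallest p that 3 arrays against 3 allow. By log2 difference DCN stood 18th from the lowest of 6151 tested genes, and 20 genes, 0.325%, lay at least 3-fold lower. Normal replicate 4 had by far the highest DCN signal, and without it the log2 difference was -1.18. In bulk tissue, fewer decorin-producing cells and less DCN RNA per cell cannot be told apart.

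BGN, biglycan, is the closest relative of decorin and, when released from the matrix, a ligand of TLR2 and TLR4. The BGN probe set with the suffix _x_at had signals of 294, 386 and 378 on laminitis replicates 1, 3 and 4, against 432, 364 and 273 on normal replicates 2, 3 and 4. The groups overlapped fully, with a log2 difference of 0.00056 ± 0.24 (95% interval -0.57 to 0.58, limma adjusted p 0.999). This suffix marks probe sets with probes that may also match other transcripts. The BGN probe set with the suffix _a_at had signals of 526, 521 and 148 on the laminitis arrays, against 406, 180 and 454 on the normal arrays. Here laminitis replicate 4 and normal replicate 3 lay far below the other arrays, and the log2 difference was 0.098 ± 0.58 (95% interval -1.28 to 1.48, limma adjusted p 0.969). The BGN probe sets thus gave different array profiles, with a root-mean-square difference of 0.84 between their mean-centred log2 values.

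ASPN encodes asporin, a class I member that carries no glycosaminoglycan chain and binds collagen and TGF-beta. Its signals were 1201, 2660 and 6956 on laminitis replicates 1, 3 and 4, against 4160, 4259 and 8018 on normal replicates 2, 3 and 4. Laminitis replicates 1 and 3 lay below every normal array, while laminitis replicate 4 lay above normal replicates 2 and 3. The laminitis values spanned 5.79-fold, against 1.93-fold for the normal ones. The means were 3605 ± 2992 in laminitis and 5479 ± 2199 in normal tissue (SD, n = 3 each). The log2 difference of -0.89 ± 0.62 had a 95% interval from -2.37 to 0.58 (limma adjusted p 0.668). It was -0.28 without laminitis replicate 1 and -1.55 without laminitis replicate 4, so single arrays decide its size.

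LUM, lumican, is a keratan sulfate proteoglycan that regulates fibril assembly in skin, cornea and tendon. Its signals were 171, 134 and 215 on laminitis replicates 1, 3 and 4, against 110, 69.1 and 268 on normal replicates 2, 3 and 4. The laminitis arrays lay above normal replicates 2 and 3 and below normal replicate 4. The log2 difference was 0.42 ± 0.49 (95% interval -0.73 to 1.58, limma adjusted p 0.807). It was -0.013 without normal replicate 3 and 0.96 without normal replicate 4, where the groups no longer overlapped.

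FMOD, fibromodulin, shares its collagen binding region with lumican and steers collagen crosslinking. Its signals were 116, 103 and 93.3 on laminitis replicates 1, 3 and 4, against 115, 95.1 and 114 on normal replicates 2, 3 and 4. All 6 values lay close to the array medians of 86.7 to 96.6, so there was little signal over the filter in which to see a change. The log2 difference was -0.055 ± 0.20, with a 95% interval from -0.52 to 0.41 (limma adjusted p 0.942).

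PRELP encodes a class II member that binds perlecan and collagen and is thought to anchor basement membranes to the tissue beneath. The brighter PRELP probe set had signals of 350, 329 and 324 on laminitis replicates 1, 3 and 4, against 367, 349 and 261 on normal replicates 2, 3 and 4. The laminitis arrays lay between the extremes of the normal arrays, with a coefficient of variation of 4.08% in laminitis and 17.5% in normal tissue. The log2 difference of 0.053 ± 0.21 had a 95% interval from -0.44 to 0.54 (limma adjusted p 0.948). The dimmer PRELP probe set read 75.2, 26.7 and 106 in laminitis, against 74.4, 48.8 and 105 in normal tissue, above the array median on 2 of 6 arrays.

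KERA and OGN were above the array median on 0 of 6 arrays. KERA, keratocan, a keratan sulfate SLRP known mainly from the corneal stroma, read 48.1, 29.6 and 89.2 on laminitis replicates 1, 3 and 4, against 37.1, 50.7 and 52.8 on normal replicates 2, 3 and 4. OGN, osteoglycin or mimecan, read 80.6, 70.7 and 88.2 in laminitis, against 77.5, 44.6 and 34.2 in normal tissue. The lowest laminitis array lay below the highest normal array for OGN, and its log2 difference of 0.69 was not tested. No detection call was used, and a bovine probe set can read low because horse sequence differs from it, so these values do not show that the transcripts were absent.

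**Figure D2:**
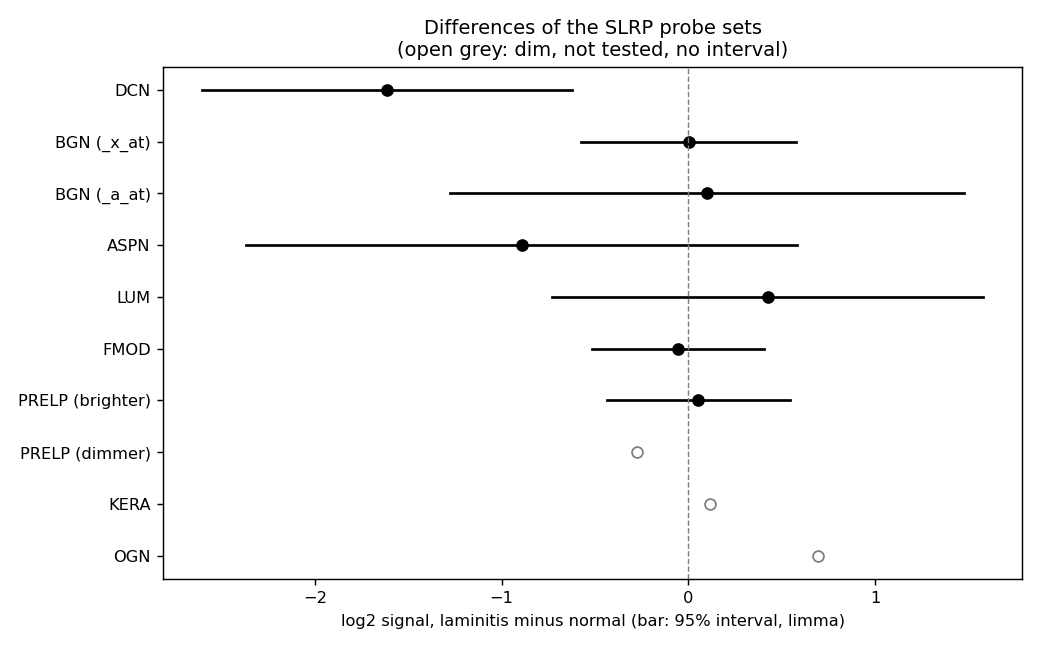
Log2 difference, laminitis minus normal, of each SLRP probe set (horizontal axis), with its 95% interval from limma for the 7 tested probe sets and open grey points for the 3 dim ones. The interval of DCN, from -2.60 to -0.62, is the only interval of the 7 that leaves out 0, before any adjustment for the number of probe sets.

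Log2 ratios within each array, which any scaling factor of the array leaves unchanged, were added after the values were seen. Those with DCN in them share its values, whose groups were already apart, so the ratios are a description and no test is given for them. About its mean over the 6 arrays, the log2 ratio of DCN to LUM, its neighbour in the horse genome, was -1.31, -0.83 and -0.91 on laminitis replicates 1, 3 and 4, against 1.04, 1.22 and 0.80 on normal replicates 2, 3 and 4. The log2 difference was -1.61 ± 0.42 for DCN and 0.42 ± 0.49 for LUM, whose 95% interval held 0, so the direction of LUM was not settled. The difference of the ratio was -2.04 on the log2 scale, with an SD of 0.25 in laminitis and 0.21 in normal tissue (n = 3 each). It was the largest difference of the 13 ratios computed. It ranged from -2.14 to -1.89 with 1 array left out, and was -2.37 after quantile normalization and -2.36 after cyclic loess normalization. LUM was dim, and on normal replicate 3 it lay below the array median, so the size of this ratio depends on signal near the filter.

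FMOD, the _x_at probe set of BGN and the brighter PRELP probe set varied little between arrays, so that ratios of DCN to them repeat the difference of DCN itself. The ratio of DCN to ASPN had the smallest difference among the member ratios, -0.72, with overlapping groups. ASPN also had the log2 profile nearest to that of DCN among the tested members, at a root-mean-square difference of 0.66, against 0.93 to 1.05 for BGN, LUM, FMOD and PRELP.

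Of the 3 interstitial collagen genes, whose fibrils carry decorin, COL3A1 had a profile 0.86 from that of DCN by root-mean-square difference. The median over 6145 genes was 1.00, and FMOD, which varied little between arrays, lay at 0.93. A distance of 0.86 thus shows little likeness to DCN. COL1A1 at 1.18 and COL1A2 at 1.27 lay farther off. COL1A1 read 2837, 3276 and 10633 on laminitis replicates 1, 3 and 4, against 1487, 3954 and 8865 on normal replicates 2, 3 and 4, and its log2 difference was 0.31 ± 0.74. COL1A2 had a log2 difference of 0.35 ± 0.85 and COL3A1 of -0.21 ± 0.46. For COL1A1 and COL1A2 the sign turned after quantile and cyclic loess normalization, and dimmer probe sets of these genes gave -0.42 and -0.48. The ratio of DCN to COL1A1 differed by -1.92, that to COL1A2 by -1.96 and that to COL3A1 by -1.40 on the log2 scale, with the groups apart in each of the 3. For ASPN the ratio differences were -1.20 to COL1A1 and -1.24 to COL1A2, with the groups apart, and -0.68 to COL3A1, with overlap.

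**Figure D3:**
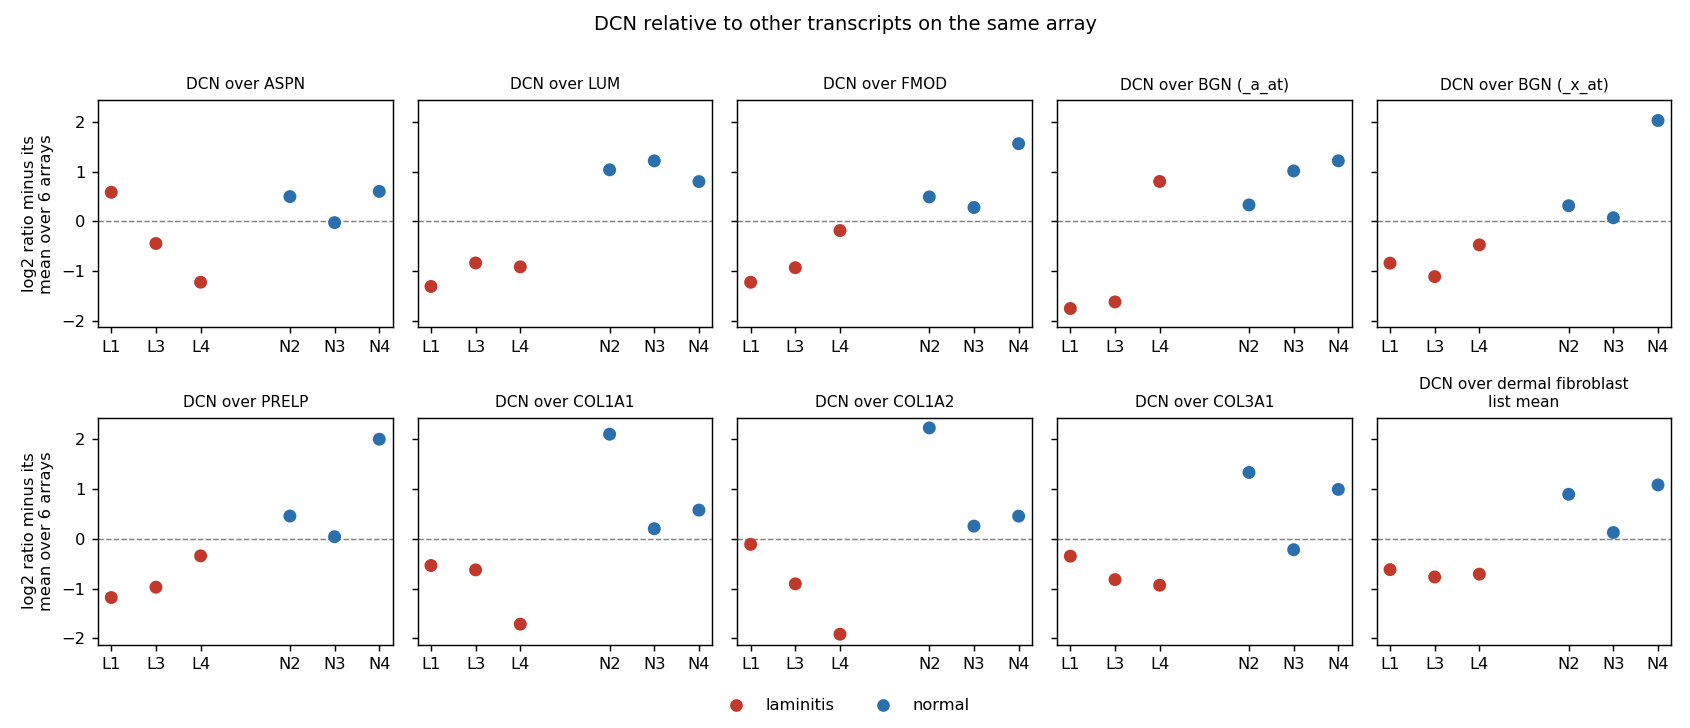
Log2 ratio of DCN to 9 other probe sets and to the mean of the dermal fibroblast marker list on the same array, each minus its own mean over the 6 arrays (vertical axis), for laminitis arrays (red, left) and normal arrays (blue, right). The DCN to LUM ratio, which has the largest difference of those shown, lies between -1.31 and -0.83 in laminitis and between 0.80 and 1.22 in normal tissue. The ratios were added after the values were seen.

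Marker levels of the cell types that the sample could hold are given beside DCN, and dermal fibroblasts, a main source of SLRPs in skin, come first. Of 15 dermal fibroblast markers 13 were tested, and 0 passed in either direction over all probe sets. At an unadjusted p under 0.05, 3 of these markers were lower and 0 higher, where 4.52% of all tested genes were lower and 5.27% higher. VIM, vimentin, had -1.08 ± 0.42 on the log2 scale, S100A4 -0.79 ± 0.31 and MFAP4, a microfibril protein, -0.58 ± 0.24. Of the 13, 8 were negative and 5 positive, and PI16 (0.39 ± 0.21) and the growth factor receptor PDGFRA (0.35 ± 0.20), named after their values were seen, were higher in laminitis with no overlap of the groups. VIM was lower with no overlap. Over all tested genes, 8.36% were apart and lower and 8.7% apart and higher. The summed signal of the 13 markers ranged from 15010 to 39063 in laminitis and from 16789 to 42350 in normal tissue, and no value in the table was 0. The sum follows its brightest genes, such as COL1A2 at 13033 and COL1A1 at 10633 on laminitis replicate 4, where it was 39063. The ratio of DCN to the mean of this list was -0.62, -0.77 and -0.71 on laminitis replicates 1, 3 and 4, against 0.89, 0.13 and 1.08 on normal replicates 2, 3 and 4, a difference of -1.40 on the log2 scale. The list holds the 3 interstitial collagens, so this ratio is not independent of those above, and the part of fibroblast number in the DCN result was not tested.

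Among 8 neutrophil markers 4 were tested, with a summed signal of 1495 to 12992 in laminitis and 503 to 983 in normal tissue, led by S100A8 and S100A9. Of the 4, 2 were higher and 2 lower in laminitis with the groups apart, against 8.7% and 8.36% of all tested genes. The sums thus follow S100A8 and S100A9 and not the list as a whole. ELANE, neutrophil elastase, was below the array median on every laminitis array (37.7, 84.2 and 71.1, against 152, 125 and 105 in normal tissue). MPO, myeloperoxidase, was also lower, at 198, 153 and 159 in laminitis, against 211, 210 and 273 in normal tissue. Laminitis replicate 4 had the lowest neutrophil sum of the laminitis arrays and also their highest DCN and ASPN signals. The normal arrays did not repeat this order, as normal replicate 3 had both their lowest sum, 503, and their lowest DCN signal, 1685. Macrophage sums, over 4 tested markers, were 612 to 739 in laminitis and 468 to 520 in normal tissue. CYBB, a subunit of the phagocyte oxidase, had 2.20 ± 0.41 on the log2 scale (limma adjusted p 0.222). It lay below the array median on normal replicates 2 and 3, at 37.4 and 40.8. MSR1 had 0.59 ± 0.27 with overlapping groups, CD68 -0.26 ± 0.26 and CD14 -0.16 ± 0.26. The gap between the macrophage sums thus came mainly from CYBB, with means of 251 in laminitis and 61.7 in normal tissue. FABP4, the 1 adipocyte marker tested of 6 listed, read 60.3 to 101 in laminitis and 120 to 172 in normal tissue. On laminitis replicates 3 and 4, at 74.1 and 60.3, FABP4 lay below the array median. The neutrophil sums, the macrophage sums and FABP4 did not overlap between the groups. The part of these cell types in the DCN result was not tested.

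The summed levels of the other marker lists overlapped between the groups. The basal keratinocyte sums were 1218 to 1943 in laminitis and 777 to 1634 in normal tissue. Those of suprabasal keratinocytes were 471 to 895 in laminitis and 669 to 811 in normal tissue, and those of endothelium 470 to 601 in laminitis and 508 to 623 in normal tissue. Smooth muscle and pericyte sums were 2991 to 4167 in laminitis and 3877 to 4987 in normal tissue. T and B cell sums were 867 to 1180 in laminitis and 1038 to 1131 in normal tissue. Nerve and Schwann cell sums were 672 to 944 in laminitis and 768 to 1017 in normal tissue. Sums of tendon markers were 6399 to 8864 in laminitis and 8201 to 12006 in normal tissue, and those of cartilage and bone 3549 to 5081 in laminitis and 3827 to 4231 in normal tissue. A sum follows the brightest probe sets of its list. In laminitis THBS4 averaged 7040 and COMP 932 among the tendon markers, and IBSP averaged 3378 among those of cartilage and bone. Overlap of sums therefore does not show that the level of a cell type was unchanged. As a sign of RNA quality, the ratio of 3' to 5' actin control probe sets was 4.71 to 6.62 in laminitis and 2.08 to 6.25 in normal tissue, and the ranges overlapped. For GAPDH the ratio was 4.06 to 9.70 in laminitis and 5.51 to 6.87 in normal tissue, also with overlap. Laminitis replicate 1, the lowest array for DCN and ASPN, had the highest value of both ratios. The part of RNA quality in these signals was not tested.

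Of 10 other SLRP family genes 5 had a probe set and 2 were tested. EPYC, epiphycan, a class III member that is the next gene beyond KERA in the horse, read 100, 29.7 and 119 on laminitis replicates 1, 3 and 4, against 166, 125 and 176 on normal replicates 2, 3 and 4. The groups were apart, with a log2 difference of -1.12 ± 0.52 (limma adjusted p 0.549), or -0.49 without laminitis replicate 3 and -0.63 with 64 added before log2. TSKU, tsukushi, had 0.27 ± 0.25. OMD, CHAD and OPTC were too dim to test.

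The chains that SLRPs carry are built in the Golgi. Of 38 genes of glycosaminoglycan chain synthesis 21 had a probe set, 13 were tested and 0 passed in either direction, with a median log2 difference of -0.13. B3GAT3, which completes the linker that joins the chain to the core protein, had -1.12 ± 0.44 (unadjusted p 0.0395, limma adjusted p 0.494). The chondroitin polymerase CHPF2 had -0.51 ± 0.23. CHST1, a keratan sulfate sulfotransferase, had 0.70 ± 0.39.

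Of 14 fibrillar and fibril-associated collagen genes 10 were tested and 0 passed, with a median of 0.078 on the log2 scale. COL5A3, a chain of the type V collagen that nucleates fibrils, read 174, 112 and 150 in laminitis, against 78.0, 24.5 and 45.3 in normal tissue. Its groups did not overlap, and the log2 difference was 1.69 ± 0.43 (limma adjusted p 0.341). COL5A3 lay below the array median on all 3 normal arrays and passed the filter through the laminitis arrays, and with 64 added before log2 the difference was 0.90. COL11A1 had 1.13 ± 0.69, with -0.31 by a dimmer probe set, and COL5A2 had -0.44 ± 0.59. Of 30 symbols of collagen processing and crosslinking genes 14 were tested and 0 passed, with a median of -0.28 and 11 of 14 negative, where 3297 of 6151 genes were negative. The prolyl hydroxylase subunit P4HA3 had -1.49 ± 0.41 with the groups apart (-1.01 with 64 added before log2), P3H1, another prolyl hydroxylase, -0.48 ± 0.21, and LOXL1, a lysyl oxidase-like crosslinking enzyme, -0.73 ± 0.38.

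Of 26 symbols of growth factors and receptors that bind SLRPs 14 were tested and 0 passed, with a median log2 difference of -0.029, as over all genes. The largest were positive. TGFB1, a ligand that decorin and asporin bind, read 210, 184 and 128 on laminitis replicates 1, 3 and 4, against 44.0, 36.4 and 197 on normal replicates 2, 3 and 4, with a log2 difference of 1.33 ± 0.63 (limma adjusted p 0.554). It was 2.09 without normal replicate 4, and 0.74 with 64 added before log2. Normal replicates 2 and 3 lay below the array median. BMP2, a bone morphogenetic protein, had 1.06 ± 0.42 and VEGFA, an angiogenic factor, 0.64 ± 0.33. TGFB3, EGFR, TLR4, MSTN and TNF were too dim to test.

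Of 13 proteases able to cleave SLRPs or shared substrates 5 were tested and 0 passed, with a median of -0.37 on the log2 scale. ADAMTS4, an aggrecanase, had the largest value, 2.86 ± 0.40, at a limma adjusted p of 0.136. Its normal signals of 70.7, 23.1 and 44.9 lay below the array medians, so it passed the filter through the laminitis arrays alone (336, 284 and 293), and with 64 added before log2 the difference was 1.76. ELANE, dim on every laminitis array, had -1.05 ± 0.34, or -0.59 with 64 added, and GZMB, granzyme B, had -0.77 ± 0.34, or -0.41 with 64 added. Of 26 symbols of hyalectans, other matrix proteoglycans and their partners 15 were tested and 0 passed. Their median was -0.26 and 11 of 15 were negative, where 3297 of 6151 genes were negative. HSPG2, perlecan, which PRELP binds, read 487, 447 and 393 in laminitis, against 732, 743 and 751 in normal tissue, with the groups apart at -0.75 ± 0.18 (limma adjusted p 0.33). FN1, fibronectin, which decorin and biglycan bind, had -0.72 ± 0.36 and GPC3, a glypican, -0.52 ± 0.26.

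**Figure D4:**
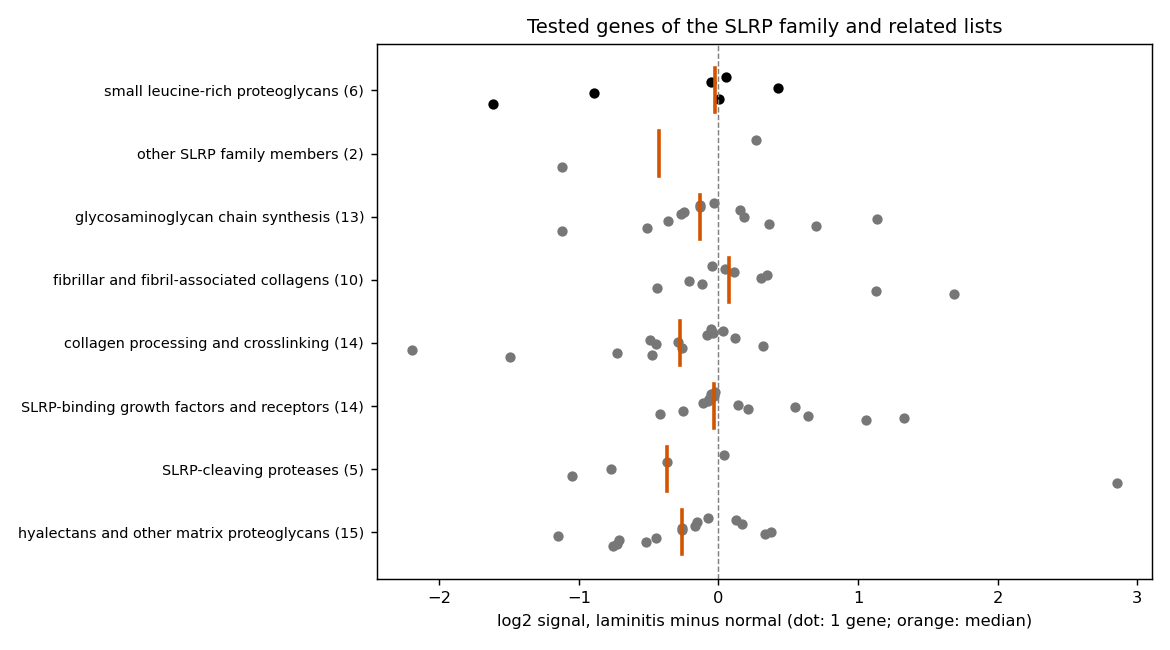
Log2 difference, laminitis minus normal (horizontal axis), of every tested gene of the SLRP members (black) and of 7 related lists (grey), with the number of tested genes in brackets and the list median in orange. DCN, at -1.61, is the lowest of the 6 members, whose median is -0.027.

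Genes whose log2 profiles over the 6 arrays were most like a member's were found by the smallest root-mean-square difference after each profile's mean was taken off. For DCN these were CDKN1C, a cell cycle inhibitor, at 0.35, LRWD1, a protein associated with the origin recognition complex, at 0.36, and SLC39A7, a zinc transporter, at 0.38, where the median over 6145 genes was 1.00. CDKN1C read 143, 197 and 350 in laminitis, against 495, 479 and 704 in normal tissue, and a dimmer CDKN1C probe set gave a log2 difference of -0.13. For LUM the nearest were LNX2, DNAJA1 and CYP11B1, at 0.20, 0.21 and 0.22 (median 0.73). A dimmer LNX2 probe set gave a log2 difference of -0.75, against 0.20 for the one used. For BGN the _x_at probe set was used, which spanned 1.31-fold in laminitis and 1.58-fold in normal tissue. Its nearest genes were DOK4, EVC2 and CYP2D14, each at 0.070 or 0.071 (median 0.38). For ASPN, added after the values were seen, they were CYHR1, PRICKLE1 and DHX38, at 0.23, 0.29 and 0.30 (median 0.96), and COL3A1 stood 130th of 6145.

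**Figure D5:**
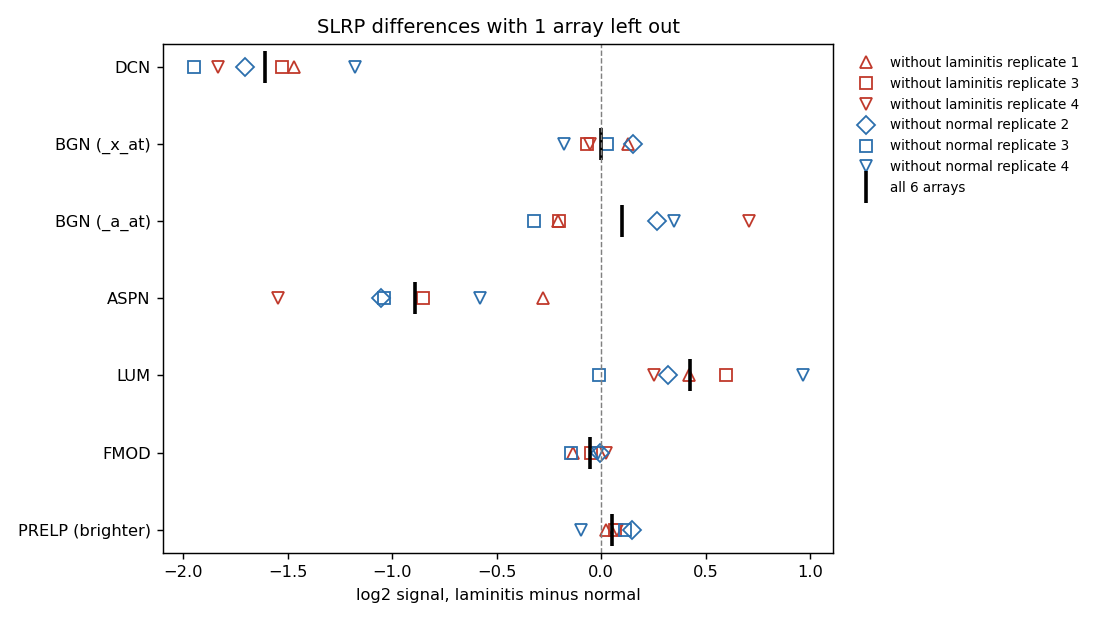
Log2 difference, laminitis minus normal (horizontal axis), of the 7 tested SLRP probe sets with all 6 arrays (black bar) and with 1 array left out (red symbols for laminitis, blue for normal arrays). DCN stays between -1.95 and -1.18, while ASPN ranges from -1.55 to -0.28 and LUM from -0.013 to 0.96.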

How the data were processed

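Per the labels' protocols, RNA of 6 lamellar samples was labelled after oligo(dT) priming and read on bovine GeneChips of Affymetrix. The authors deposited intensities on a linear scale, a value for each probe set on each array, scaled to a trimmed mean near 150.02 on every array. The submitters' processing notes name GCRMA, but linear values with a common trimmed mean are not its usual output, so how they were made is not settled. Gene symbols come from GEO's annotation of the platform. Signals of different probe sets cannot be set against each other.

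Of 24016 non-control probe sets, 12519 lay above their array's median on at least 3 arrays. Their log2 values, with no offset, were compared with limma 3.58.1 in R 4.3.3 (lmFit, eBayes, prior df 3.02), as a two-sided test, and p was adjusted over all of them by Benjamini-Hochberg. The brightest tested probe set stood for its gene. Precision is limited by the number of arrays. The procedure was run on simulated data with independent errors, where recovery was required only for changes larger than those of the SLRP members. It does not show that differences of their size could be called. No arrays held identical values.

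The members, the 7 related lists and the 12 marker lists were chosen with earlier results of these data known. In some related lists a gene stands under both an older and a current symbol, and there the listed count is of symbols. Named were all members, the 3 genes of smallest p in each related list (all of them in a list with fewer tested), 3 interstitial collagens and the 3 genes nearest to DCN, LUM and BGN. For brevity, markers are given as sums, with genes named for fibroblasts, neutrophils, macrophages and adipocytes alone. Ratios within arrays and the genes nearest to ASPN were added after the values were seen.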

Additional observations from a re-analysis of the deposited data

How the results depend on the processing

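The 7 tested SLRP probe sets were recomputed under 16 alternatives, which covered filters, normalizations, an offset, variance models, array weights, the replicate number and leaving out each array. In 0 of 110 such values did a member pass at an adjusted p of 0.05. DCN kept its sign in all 16, from -1.95 to -1.18, with limma adjusted p from 0.128, with probe sets above the median on all 6 arrays, to 0.613. ASPN was negative in all 16. LUM was positive in 14 of 15. Over all members 17 of the 110 values changed sign. FMOD became 0.026 after quantile normalization, 0.028 after median centring, 0.049 after cyclic loess and ranged from -0.14 to 0.020 with 1 array left out. The _x_at probe set of BGN became -0.00078 after quantile normalization, -0.0015 with 64 added before log2 and -0.034 with array weights, and ranged from -0.18 to 0.15 with 1 array left out. The _a_at probe set of BGN became -0.040 with the replicate block and ranged from -0.32 to 0.70 with 1 array left out, PRELP became -0.00064 with array weights and ranged from -0.099 to 0.15, and LUM ranged from -0.013 to 0.96.

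The SLRP median was -0.45 with probe sets above the median on all 6 arrays, where LUM and FMOD dropped out, and with 1 array left out it ranged from -0.23 to 0.071, lowest without normal replicate 3. The count of SLRP genes with groups apart ranged from 1 to 3 with 1 array left out. It was 3 without laminitis replicate 4 (DCN, ASPN and BGN, the last by another probe set), where 33.2% of all genes were apart, and 2 without normal replicate 4 (DCN and LUM), where 29.5% were. The cause was not tested.

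Among 28 genes, named from the related lists and from the fibroblast and neutrophil marker lists and including the interstitial collagens, 13 of 439 values changed sign. Other named marker genes, such as PI16, PDGFRA, CYBB and FABP4, were not recomputed. COL1A1 became -0.074 after quantile normalization, -0.058 after cyclic loess and -0.0045 with the replicate block, and COL1A2 -0.048 and -0.029 after the same normalizations. TSKU became -0.033 with the replicate block. With 1 array left out COL1A1 ranged from -0.36 to 0.93, COL1A2 from -0.37 to 1.04, COL3A1 from -0.62 to 0.11 and COL5A2 from -1.08 to 0.076.

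Replicate numbers 3 and 4 occur in both groups, but the deviations of same-numbered arrays from their group means correlated at -0.017 and -0.031, and the labels do not pair them. With the replicate block DCN was -1.56 and 0 members passed.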
